A study of Rattus norvegicus with 3 samples.

Results

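Isg15 conjugation was described through 4 genes, Isg15 (ENSRNOG00000069527), Usp18 (ENSRNOG00000037198), Herc6 (ENSRNOG00000023969) and Uba7 (ENSRNOG00000029195), of 30560 features in the count tables. They were chosen with their behaviour in these libraries known, from raw UMI counts over all barcodes, per cell class and per neuron subtype, so their values are a description and no test was made on them. Each symbol matched 1 feature. A UMI, or unique molecular identifier, marks 1 captured RNA molecule.

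Isg15 is a ubiquitin-like protein induced by type I interferons, which is joined to lysines of other proteins in a cascade like that of ubiquitin. Uba7 is its activating (E1) enzyme, Ube2l6 its conjugating (E2) enzyme, and Herc6 is the main ligase (E3) for Isg15 in mice, a role that HERC5 has in humans. Usp18 is the protease that removes Isg15 from its targets, and it also binds the receptor subunit Ifnar2 and dampens interferon signalling. In the brain these genes are known as interferon-stimulated genes of vessel cells, glia and neurons.

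Single nuclei were profiled from the brains of wild-type female Crl:CD(SD) rats, an outbred stock, aged 12 weeks, at 7 h after an intraperitoneal injection. The LPS group received lipopolysaccharide, a bacterial cell wall component, at 5 mg/kg, the poly(I:C) group received polyinosinic:polycytidylic acid, a synthetic double-stranded RNA, at 12 mg/kg, and the controls received saline. Brains of 4 animals were pooled in each of the 3 libraries, with no assignment of nuclei to animals, so each group had 1 library and the spread between animals is unknown. All intervals in square brackets are exact 95% intervals that cover counting error only.

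The LPS, poly(I:C) and saline libraries held 11211, 15001 and 25435 barcodes with 29763787, 21340578 and 35532360 UMIs. The median per barcode was 2436 UMIs after LPS, 1264 after poly(I:C) and 1165 after saline. Nuclei were sorted into classes by marker UMIs, with 48.6%, 30.3% and 28.005% of barcodes gated in the LPS, poly(I:C) and saline libraries and the rest left ungated or in more than 1 class. Syt1, which encodes a vesicle protein of neurons, had a UMI in 84.3%, 89.8% and 89.4% of all barcodes, and in 40.1%, 46.5% and 53.0% of nuclei gated as endothelial, so neuronal RNA was present outside neurons. The libraries shared 247 to 550 barcode sequences pairwise. Leaving these out moved none of the 93 ratios recomputed that way by more than its counting interval. The other ratios below were not recomputed.

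Promoter sequences are shown for the 2 of 4 members that RefSeq's table (build GRCr8) held, because all members were higher together after poly(I:C). The windows were searched on both strands for GAAA followed after any 2 bases by GAAA, the core of the interferon-stimulated response element, and for GAAACT. For Herc6 the 250 bases before the start, chr4:88896994-88897243 on the minus strand, held neither motif. For Uba7 the 250 bases before the start held neither motif, and GAAACT lay on the minus strand at bases 36 to 41 after the start, inside chr8:117543922-117543951 on the plus strand. The capitals mark that match, written on the plus strand as AGTTTC.
Herc6: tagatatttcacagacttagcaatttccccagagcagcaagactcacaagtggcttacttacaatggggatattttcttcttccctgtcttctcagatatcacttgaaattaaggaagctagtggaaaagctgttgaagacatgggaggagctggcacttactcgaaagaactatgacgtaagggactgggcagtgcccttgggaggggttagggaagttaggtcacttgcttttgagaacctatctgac
Uba7: gaaccaactctgtctAGTTTCacttttggt
Among 33469 promoter windows of 250 bases before to 50 after the start, 3.92% held the paired GAAA motif and 16.6% held GAAACT. A match is a description of these letters.

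Over all barcodes all 4 members were highest after poly(I:C). Isg15 had 41 UMIs (1.38 CPM [0.989 to 1.87]) after LPS, 215 (10.1 CPM [8.77 to 11.5]) after poly(I:C) and 6 (0.169 CPM [0.0620 to 0.368]) after saline, where CPM is UMIs per 1000000 UMIs of the library. The 3 intervals did not overlap. Uba7 had 45 UMIs (1.51 CPM [1.10 to 2.02]) after LPS, 183 (8.58 CPM [7.38 to 9.91]) after poly(I:C) and 32 (0.901 CPM [0.616 to 1.27]) after saline, so that its LPS and saline intervals overlapped.

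The ligase Herc6 had 1172 UMIs (39.4 CPM [37.2 to 41.7]) after LPS, 3785 (177 CPM [172 to 183]) after poly(I:C) and 852 (24.0 CPM [22.4 to 25.6]) after saline. The protease Usp18 had 160 UMIs (5.38 CPM [4.57 to 6.28]) after LPS, 1423 (66.7 CPM [63.3 to 70.2]) after poly(I:C) and 61 (1.72 CPM [1.31 to 2.21]) after saline. The intervals of both genes, like those of Isg15, were apart in all 3 libraries. They cover counting error only, and no share of all genes with intervals apart is given beside them, so nothing is read from this. Sums over all barcodes cannot tell fewer cells of a type from less RNA per cell.

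**Figure D1:**
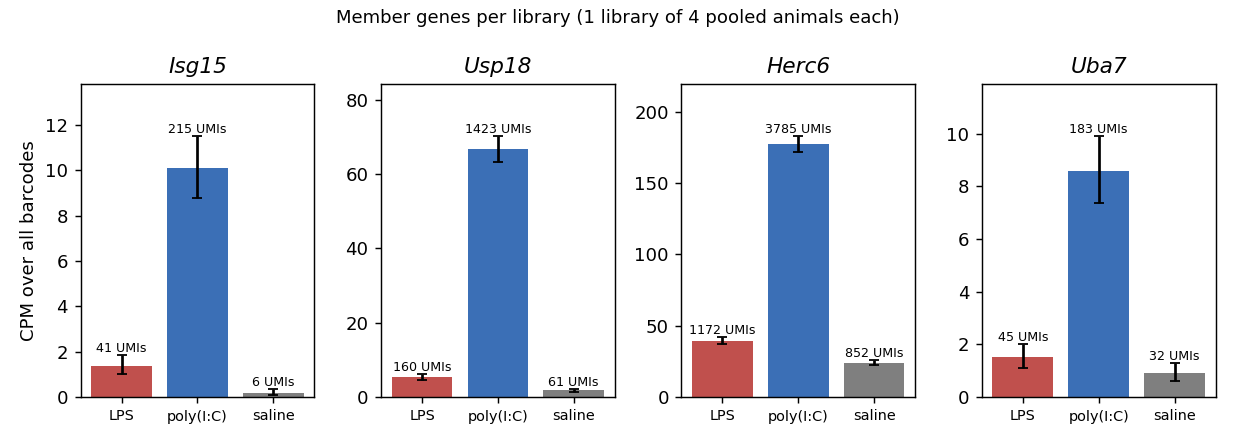
CPM over all barcodes (vertical axis, linear, from 0) of the 4 member genes in the LPS, poly(I:C) and saline libraries, with exact 95% counting intervals as bars and UMI counts above them. Each gene is highest after poly(I:C), with Isg15 at 10.1 CPM, Usp18 at 66.7, Herc6 at 177 and Uba7 at 8.58.

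As ratios of CPM to saline, all 4 members were at least 2-fold higher after poly(I:C), where 2.22% of 15872 genes with at least 20 UMIs were. The ratio was 59.7 [27.0 to 164] for Isg15, 38.8 [30.1 to 51.0] for Usp18, 7.40 [6.87 to 7.98] for Herc6 and 9.52 [6.51 to 14.3] for Uba7. With barcodes thinned to 1000 UMIs the Isg15 ratio was 19.4 [7.90 to 61.8], from 65 and 5 UMIs. After LPS, 2 of the 4 were at least 2-fold higher, where 2.5% of 16179 genes were. They were Isg15, at 8.16 [3.44 to 23.5], and Usp18, at 3.13 [2.32 to 4.28], while Herc6 was at 1.64 [1.5 to 1.80] and Uba7 at 1.68 [1.04 to 2.73]. Nothing is read from these shares, since the members were chosen on the same values. Both comparisons used the same saline library.

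Ranked by ratio to saline from the highest, Isg15 was 16th, Usp18 27th, Uba7 75th and Herc6 95th of the genes compared after poly(I:C). After LPS they were 46th, 169th, 655th and 695th in the same order. In the comparison of LPS with poly(I:C), which did not use saline, all 4 were at least 2-fold lower after LPS, where 1.45% of genes were. The LPS to poly(I:C) ratio was 0.137 [0.0954 to 0.192] for Isg15 (0.237 with barcodes thinned to 1000 UMIs), 0.0806 [0.0680 to 0.0950] for Usp18, 0.222 [0.208 to 0.237] for Herc6 and 0.176 [0.124 to 0.245] for Uba7. The median log2 ratio over all genes was within 0.09 of 0 in each comparison, at -0.03 for LPS to saline, -0.09 for poly(I:C) to saline and 0.05 for LPS to poly(I:C).

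The share of barcodes with a UMI of Usp18 was 1.27% after LPS, 7.96% after poly(I:C) and 0.232% after saline. With each barcode thinned to 1000 UMIs the shares were 0.376%, 4.73% and 0.124%. For Herc6 the shares were 7.87%, 14.7% and 3.07%, or 3.15%, 9.44% and 2.18% thinned. The order of the libraries was the same at equal depth, but the LPS values moved closer to saline. Thinning also left out the barcodes under 1000 UMIs, 1901 after LPS, 4763 after poly(I:C) and 10150 after saline. The set of barcodes thus changed together with depth, and the part of each was not tested.

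Most Isg15 molecules lay in barcodes with vascular markers. Nuclei gated as endothelial, mural or endothelial with mural markers held 48.8%, 55.3% and 66.7% of the Isg15 UMIs after LPS, poly(I:C) and saline, while holding 1.02%, 1.48% and 1.88% of all UMIs. Barcodes with any endothelial or mural marker UMI, gated or not, held 82.9%, 90.7% and 83.3% of the Isg15 UMIs and 14.7%, 10.8% and 12.1% of all UMIs. The saline shares rest on 6 Isg15 UMIs. The vascular gates held 23.1%, 12.2% and 44.3% of the Usp18 UMIs, 14.2%, 24.8% and 9.04% of the Herc6 UMIs and 26.7%, 24.6% and 37.5% of the Uba7 UMIs. Barcodes with any vascular marker held 39.4%, 29.0% and 54.1% for Usp18, 32.0%, 45.5% and 19.4% for Herc6 and 51.1%, 42.1% and 50% for Uba7, each below the Isg15 share of the same library. The neuron gates held 31.4%, 15.6% and 30.05% of the Herc6 UMIs. Ungated barcodes held 34.5%, 44.2% and 56.0% of the Herc6 UMIs, so the class values below do not account for all of them.

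In nuclei gated as endothelial, the lining cells of brain vessels, all 4 members were higher after poly(I:C) than after saline, and Isg15, Usp18 and Herc6 were also higher after LPS. There were 142 such nuclei after LPS, 241 after poly(I:C) and 447 after saline, with median depths of 884, 714 and 808 UMIs. The 15 endothelial markers used all had UMIs in each library and summed to 7712, 5776 and 7215 CPM. Markers of other cells were present too. The mural list summed to 1575, 1626 and 2025 CPM in the LPS, poly(I:C) and saline nuclei, with Acta2, Tagln and Anpep at 0 after LPS and poly(I:C), and 3 erythroid markers summed to 4042, 2455 and 5844 CPM. The part of these in the results was not tested.

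Isg15 had 14 UMIs (67.9 CPM [37.1 to 114]) in LPS endothelial nuclei, 92 (339 CPM [273 to 416]) in poly(I:C) ones and 1 (2.09 CPM [0.0530 to 11.7]) in saline ones. It was thus close to undetected without treatment. Its ratio to saline was 32.4 [4.93 to 1371] after LPS and 162 [28.4 to 6471] after poly(I:C), with wide intervals because of the single saline UMI. A UMI of Isg15 was found in 9.15% of LPS, 30.7% of poly(I:C) and 0.224% of saline endothelial nuclei.

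Herc6 had 98 UMIs (475 CPM [386 to 579]) in LPS endothelial nuclei, 749 (2761 CPM [2567 to 2966]) in poly(I:C) ones and 47 (98.3 CPM [72.3 to 131]) in saline ones. Its ratio to saline was 4.83 [3.38 to 6.99] after LPS and 28.1 [20.9 to 38.6] after poly(I:C). Without nuclei that held a Syt1 UMI these ratios were 8.94 and 53.6. With nuclei thinned to 1000 UMIs before gating the LPS ratio was 8.55. These alternative ratios rest on fewer UMIs and are given without intervals. Of the endothelial nuclei 41.5% held Herc6 after LPS, 91.3% after poly(I:C) and 9.17% after saline. With the gates kept and the nuclei thinned the shares were 32.8%, 73.3% and 6.63%. After poly(I:C) 128 of the 220 nuclei with Herc6 held 3 or more UMIs, up to 11.

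Usp18 had 22 UMIs (107 CPM [66.8 to 161]) in LPS endothelial nuclei, 136 (501 CPM [421 to 593]) in poly(I:C) ones and 22 (46.0 CPM [28.8 to 69.7]) in saline ones. The ratio to saline was 2.32 [1.22 to 4.39] after LPS and 10.9 [6.91 to 18.0] after poly(I:C). With nuclei thinned before gating the poly(I:C) ratio was 22.8, given without an interval. With the gates kept, only 3 thinned saline endothelial nuclei held a Usp18 UMI, against 20 after poly(I:C). Uba7 had 10 UMIs (48.5 CPM), 35 (129 CPM) and 9 (18.8 CPM) in the LPS, poly(I:C) and saline nuclei. Its ratio was 2.57 [0.940 to 7.16] after LPS, an interval that includes 1, and 6.85 [3.23 to 16.2] after poly(I:C). By ratio all 4 members were at least 2-fold higher after both treatments, where 6.73% of genes with at least 20 UMIs were in LPS and 7.2% in poly(I:C) endothelial nuclei, although Isg15 and Uba7 had under 20 UMIs in the LPS comparison.

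LPS and poly(I:C) endothelial nuclei differed in all 4 members. The LPS to poly(I:C) ratio was 0.200 [0.105 to 0.353] for Isg15, 0.213 [0.129 to 0.335] for Usp18, 0.172 [0.138 to 0.213] for Herc6 and 0.376 [0.166 to 0.775] for Uba7. Each was at least 2-fold lower after LPS, where 5.68% of genes were. In nuclei with endothelial and mural markers together (67 after LPS, 40 after poly(I:C) and 138 after saline), Herc6 had 67, 150 and 30 UMIs, with ratios to saline of 4.42 [2.83 to 7.04] and 24.0 [16.1 to 36.8] for LPS and poly(I:C).

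**Figure D2:**
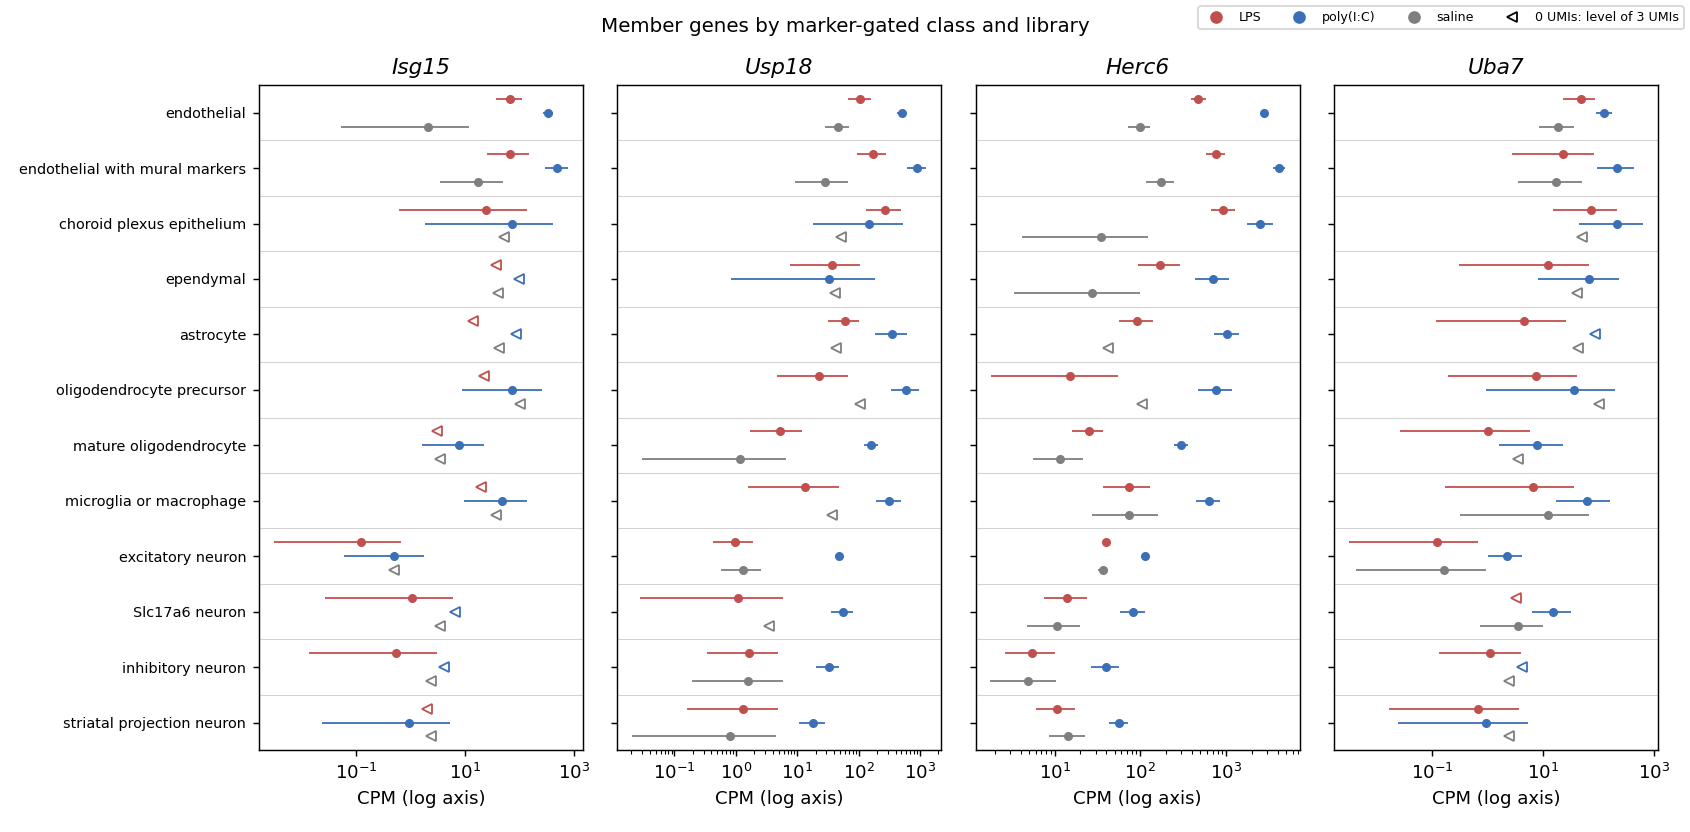
CPM (horizontal log axis) of the 4 member genes in each marker-gated class, with LPS above poly(I:C) above saline, exact 95% intervals as lines and open triangles at the level of 3 UMIs where a class had 0 UMIs. Among the classes plotted Isg15 is highest in both endothelial rows after LPS and after poly(I:C), while Herc6 and Usp18 are higher after poly(I:C) than after saline in astrocyte, oligodendrocyte and neuron rows too.

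Outside the vascular gates each gated class held few Isg15 UMIs, whereas Herc6 and Usp18 were counted there after poly(I:C). Ungated poly(I:C) barcodes held 48 Isg15 UMIs. Non-neuronal nuclei outside the vascular gates (1466, 627 and 1154 after LPS, poly(I:C) and saline) held 1, 13 and 0 UMIs of Isg15, 37, 132 and 1 of Usp18, and 115, 295 and 22 of Herc6. In mature oligodendrocytes, the myelin-forming cells (970, 425 and 859 nuclei), Usp18 had 5, 61 and 1 UMIs and Herc6 24, 115 and 10. The Herc6 levels were 24.9, 299.8 and 11.6 CPM, with a ratio to saline of 2.14 [0.987 to 5.01] after LPS and 25.8 [13.5 to 55.2] after poly(I:C). With nuclei thinned before gating the poly(I:C) ratio was 8.92. Both members tested there (Usp18 and Herc6) were at least 2-fold higher after poly(I:C), where 2.35% of genes were. Syt1 was found in 32.3%, 50.8% and 60.9% of these nuclei. Without those nuclei the Herc6 ratio to saline was 1.74 [0.470 to 9.61] after LPS and 42.3 [13.9 to 209.7] after poly(I:C), the saline level resting on 3 UMIs.

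Nuclei gated as astrocytes (186, 39 and 67 after LPS, poly(I:C) and saline) held 20, 35 and 0 UMIs of Herc6, at 92.1, 1027 and 0 CPM. Taking 3 UMIs for the saline count of 0, Herc6 was 2.18-fold higher after LPS and 24.3-fold higher after poly(I:C). These values leave out the counting error of the treated UMIs, so the exact intervals reach lower. Oligodendrocyte precursors (93, 31 and 31 nuclei) held 2, 21 and 0 UMIs of Herc6 and 3, 16 and 0 of Usp18. A count of 0, taken as 3, allows up to 4.48% of the 67 saline astrocytes and 9.68% of the 31 saline precursors to hold a Herc6 UMI, which limits detection and not expression in such shallow nuclei. In microglia or macrophages, the resident phagocytes (65, 48 and 55 nuclei), Herc6 had 11, 40 and 6 UMIs. Its ratio to saline there was 0.986 [0.334 to 3.25] after LPS and 8.48 [3.57 to 24.5] after poly(I:C).

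Choroid plexus epithelium, which makes cerebrospinal fluid, and ependymal cells, which line the ventricles, had more Herc6 after LPS and after poly(I:C) than after saline. In choroid plexus nuclei (36, 23 and 41 after LPS, poly(I:C) and saline) Usp18 had 11, 2 and 0 UMIs, and Isg15 1, 1 and 0. These are few nuclei, and at 270 CPM [135 to 483] after LPS and 148 CPM [17.9 to 534] after poly(I:C) the Usp18 intervals overlapped. Herc6 had 38, 34 and 2 UMIs, at 932, 2513 and 34.3 CPM. The endothelial to choroid plexus ratio of Herc6 was 0.510 [0.347 to 0.762] after LPS. It was 1.10 [0.779 to 1.60] after poly(I:C) and 2.87 [0.751 to 24.4] after saline. For Usp18 the same ratio was 0.395 [0.184 to 0.903] after LPS and 3.39 [0.921 to 28.3] after poly(I:C). In ependymal nuclei (77, 29 and 65) Herc6 had 14, 21 and 2 UMIs, at 171, 702 and 27.5 CPM, and a LPS to saline ratio of 6.23 [1.43 to 56.4].

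In excitatory neurons, gated by the glutamate transporter Slc17a7 and other telencephalic markers, Herc6 was present without treatment and Isg15 was almost absent in all libraries. There were 2257, 2055 and 3116 such nuclei after LPS, poly(I:C) and saline, with median depths of 3372, 1786 and 1741 UMIs. Herc6 had 327 UMIs (39.8 CPM [35.6 to 44.4]) after LPS, 456 (114 CPM [103 to 125]) after poly(I:C) and 223 (37.1 CPM [32.3 to 42.2]) after saline. The LPS and saline intervals overlapped and poly(I:C) stood above both. The ratio to saline was 1.08 [0.904 to 1.28] after LPS and 3.07 [2.61 to 3.62] after poly(I:C), and LPS to poly(I:C) was 0.351 [0.303 to 0.405].

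Usp18 had 8 UMIs (0.975 CPM [0.421 to 1.92]) in LPS, 190 (47.3 CPM [40.8 to 54.6]) in poly(I:C) and 8 (1.33 CPM [0.574 to 2.62]) in saline excitatory nuclei. It was nearly undetected after LPS and saline alike. The ratio to saline was 0.733 [0.240 to 2.24] after LPS and 35.6 [17.7 to 83.7] after poly(I:C). Isg15 had 1, 2 and 0 UMIs in the LPS, poly(I:C) and saline excitatory nuclei, and Uba7 had 1, 9 and 1. The count of 0, taken as 3, allows up to 0.0963% of the 3116 saline nuclei to hold an Isg15 UMI. Both members with at least 20 UMIs were at least 2-fold higher after poly(I:C), where 0.99% of genes were, and the 1 such member in the LPS comparison, Herc6, was not, where 0.813% of genes were.

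The balance of Usp18 and Isg15 molecules differed between classes within the poly(I:C) library. Excitatory nuclei held 190 Usp18 UMIs beside 2 of Isg15, mature oligodendrocytes 61 beside 3, and inhibitory neurons 23 beside 0. Endothelial nuclei held 136 beside 92. That is 95 Usp18 UMIs per Isg15 UMI [25.9 to 790.1] in excitatory and 1.48 [1.13 to 1.95] in endothelial nuclei. These set 1 pair of genes side by side across classes and compare no levels between genes.

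Some RNA of vessels was counted in excitatory nuclei. The 15 endothelial markers summed to 32.7, 37.6 and 40.7 CPM in LPS, poly(I:C) and saline nuclei of the excitatory neuron gate, with Tie1 at 0 after saline, against 7712, 5776 and 7215 CPM in endothelial ones. Leaving out neurons with any endothelial or mural marker UMI moved none of 51 ratios involving neurons by more than their counting interval. That setting drops only neurons in which a vascular marker was detected. The part of vessel RNA in the neuron values was not tested. Within poly(I:C) excitatory nuclei thinned to 1000 UMIs, Herc6 was found in 24.7% [15.8 to 35.5] of 81 nuclei with Usp18 and in 10.3% [8.96 to 11.8] of 1852 without.

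Herc6 without treatment was highest in excitatory neurons among 4 of the 5 neuron gates, the other being cholinergic neurons, whose 32 nuclei with 0 UMIs (up to 55.4 CPM) cannot be ranked. In the saline library the level was 37.1 CPM [32.3 to 42.2] in excitatory neurons, 14.4 [8.55 to 22.8] in striatal projection neurons, 10.5 [4.80 to 19.9] in neurons with the transporter Slc17a6 and 4.82 [1.77 to 10.5] in inhibitory neurons. The last 3 had overlapping intervals, and excitatory neurons lay above each. The excitatory level was 7.69 times that of inhibitory neurons [3.48 to 21.2], 2.57 times that of striatal neurons [1.59 to 4.41] and 3.19 times that of mature oligodendrocytes [1.70 to 6.74]. Saline endothelial nuclei were above excitatory ones, at a ratio of 2.65 [1.90 to 3.65].

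Most positive saline excitatory nuclei held a single Herc6 molecule, 185 of 204, and none held more than 2. The share with Herc6 was 6.55% [5.70 to 7.47] at a median depth of 1741 UMIs, against 0.762% [0.280 to 1.65] of saline inhibitory neurons at 1386. Thinned to 1000 UMIs the shares were 3.93% and 0.678%. Per 1000 Syt1 UMIs Herc6 had 8.997 UMIs in excitatory, 4.74 in striatal, 3.49 in Slc17a6, 1.32 in inhibitory and 5.20 in mature oligodendrocyte nuclei, the last from 10 Herc6 UMIs.

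The other neuron classes also had more Herc6 and Usp18 after poly(I:C). Inhibitory neurons (656, 490 and 787 nuclei after LPS, poly(I:C) and saline) held 10, 28 and 6 UMIs of Herc6, with ratios to saline of 1.14 [0.376 to 3.82] and 8.19 [3.33 to 24.2]. Striatal projection neurons (564, 782 and 881) held 16, 59 and 18, with ratios of 0.736 [0.351 to 1.53] and 3.89 [2.26 to 7.01]. Slc17a6 neurons (274, 273 and 553) held 13, 37 and 9, with ratios of 1.32 [0.524 to 3.51] and 7.80 [3.70 to 18.4]. In each class the LPS interval included 1 and the poly(I:C) interval did not. Usp18 had 3, 23 and 2 UMIs in inhibitory, 2, 19 and 1 in striatal and 1, 25 and 0 in Slc17a6 neurons. Usp18 and Herc6 were both at least 2-fold higher after poly(I:C) in inhibitory and striatal neurons, where 1.24% and 1.16% of genes were.

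The lead of excitatory over inhibitory neurons in Herc6 was 7.25 [3.89 to 15.3] after LPS, 2.88 [1.97 to 4.38] after poly(I:C) and 7.69 [3.48 to 21.2] after saline. The poly(I:C) interval overlapped both others. Endothelial nuclei were 11.9 times [9.41 to 15.0] above excitatory ones after LPS, 24.3 times [21.6 to 27.4] after poly(I:C) and 2.65 times [1.90 to 3.65] after saline, and these 3 intervals did not overlap. For Usp18 the same ratio was 109 [46.9 to 284] after LPS, 10.6 [8.43 to 13.3] after poly(I:C) and 34.6 [14.85 to 89.97] after saline. The LPS and saline intervals overlapped, each resting on 8 excitatory UMIs, and the poly(I:C) interval lay below both.

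Within excitatory neurons Herc6 differed between cortical subtypes and by library. Upper-layer nuclei, gated by Cux2 without Rorb, Foxp2 or Etv1 (231, 140 and 158 nuclei), held 74, 40 and 12 UMIs, at 87.7 CPM [68.9 to 110] after LPS, 144 [103 to 196] after poly(I:C) and 35.7 [18.4 to 62.3] after saline. Of the 13 subtypes gated, this was the one whose LPS to saline interval lay above 1, at 2.46 [1.33 to 4.98]. With all nuclei thinned before gating the ratio turned to 0.8, from 2 LPS and 5 saline UMIs. With the gates kept and the nuclei thinned, Herc6 was found in 7.83% of LPS, 10.1% of poly(I:C) and 4.03% of saline upper-layer nuclei. These shares are given without intervals and do not settle the reversed ratio. The kept gates were set at unequal median depths of 3475 UMIs after LPS, 1868.5 after poly(I:C) and 1998 after saline. Markers are missed more often in shallower nuclei, so the gate may not have selected alike in the libraries, which was not tested.

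Middle-layer nuclei, gated by Rorb (210, 103 and 117), held 28, 34 and 17 UMIs of Herc6, at 41.0, 178 and 69.4 CPM. The LPS to saline ratio was 0.590 [0.312 to 1.15], an interval below that of upper-layer nuclei, and the poly(I:C) ratio was 2.57 [1.40 to 4.91]. Corticothalamic-type nuclei, gated by 3 or more of Foxp2, Hs3st4, Tle4 and related genes (241, 167 and 238), had the lowest levels of the larger cortical gates. They held 12, 15 and 7 UMIs, at 15.8, 49.9 and 15.6 CPM, with ratios of 1.02 [0.370 to 3.05] and 3.21 [1.23 to 9.29]. The upper-layer to corticothalamic-type ratio was 5.54 [2.99 to 11.2] after LPS, 2.89 [1.56 to 5.62] after poly(I:C) and 2.29 [0.832 to 6.87] after saline. The saline interval included 1. The middle-layer to corticothalamic-type ratio was 2.59 [1.27 to 5.58], 3.58 [1.90 to 7.07] and 4.46 [1.76 to 12.7] in the same order, with each interval above 1.

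Nuclei were also split by single markers within the whole excitatory gate. Nuclei with Foxp2 had 0.620 [0.437 to 0.859] of the Herc6 level of those without after LPS, 0.524 [0.375 to 0.717] after poly(I:C) and 0.594 [0.388 to 0.881] after saline. For Hs3st4 the ratios were 0.484, 0.681 and 0.641, with all intervals below 1. Other deep-layer markers differed from these, with ratios of 0.620, 0.910 and 0.728 after LPS, poly(I:C) and saline for Tle4, 0.705, 1.63 and 1.29 for Fezf2, and 0.542, 1.80 [1.14 to 2.72] and 0.313 for Nr4a2. Nuclei with Cux2 had 2.06 times [1.64 to 2.57] the level of those without after LPS, 1.09 times [0.863 to 1.37] after poly(I:C) and 1.30 times [0.927 to 1.78] after saline. The Cux2 interval excluded 1 after LPS and included it in the other libraries. Other upper-layer markers differed from Cux2 and from each other. Cux1 was at 1.66, 1.07 and 0.924 after LPS, poly(I:C) and saline, Calb1 at 0.770, 0.968 and 0.699, and Lamp5 at 1.05, 1.03 and 1.43. Of the middle-layer markers, Rorb was at 0.913, 1.36 and 1.45 and Whrn at 0.685, 1.33 and 0.395. A marker is found more often in deeper nuclei, and the part of depth was not tested.

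**Figure D3:**
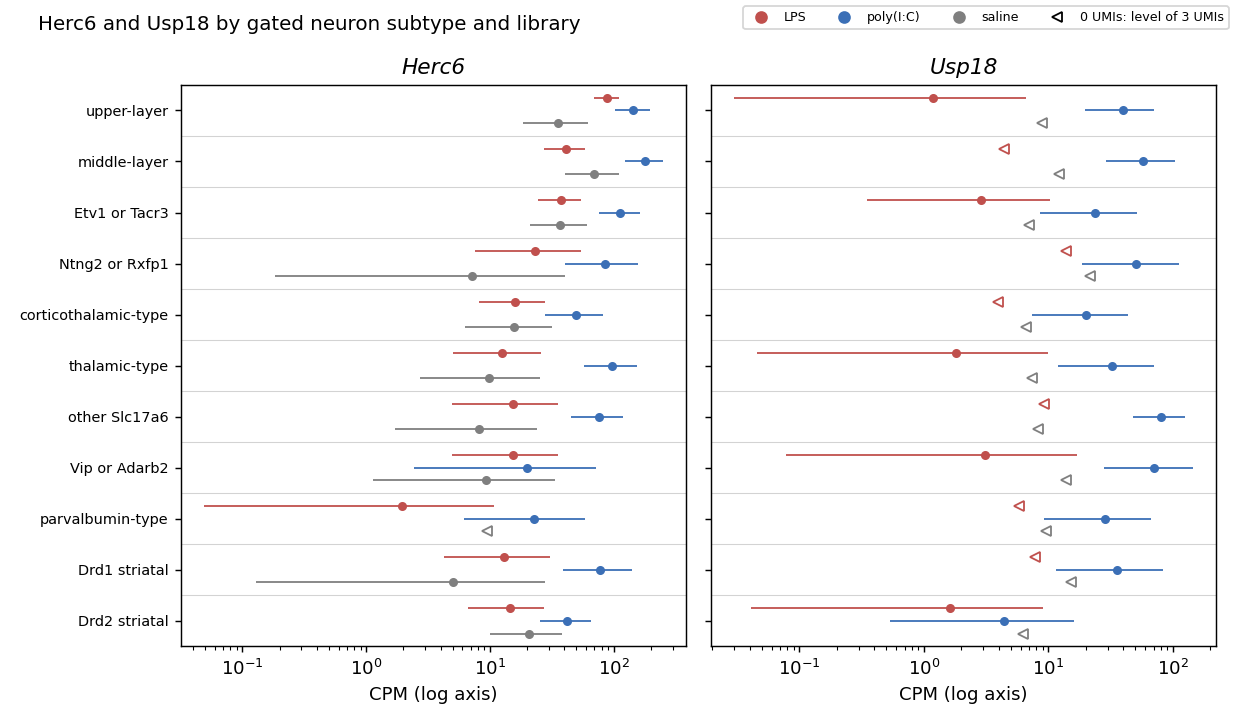
CPM (horizontal log axis) of Herc6 and Usp18 in gated neuron subtypes, with LPS above poly(I:C) above saline, exact 95% intervals as lines and open triangles at the level of 3 UMIs where a subtype had 0 UMIs. Herc6 is visible in saline upper-layer, middle-layer and Etv1 or Tacr3 nuclei at 35.7, 69.4 and 37.2 CPM, while Usp18 is at 0 UMIs in these saline rows.

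Usp18 after poly(I:C) was spread over the subtypes. Upper-layer, middle-layer and corticothalamic-type nuclei held 11, 11 and 6 UMIs, and Slc17a6 nuclei without thalamic markers held 19, at 80.1 CPM. Of the striatal subtypes, Drd1 nuclei held 5 UMIs (35.5 CPM) and Drd2 nuclei 2 (4.44 CPM), from 97 and 329 nuclei. These are small counts.

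The partners of the cascade were compared over all barcodes. The conjugating enzyme Ube2l6 had 100 UMIs after poly(I:C) against 19 after saline, a ratio of 8.76 [5.33 to 15.2], and was at 1.38 after LPS. Trim25, a ligase that can act on Isg15, was at 3.31 [2.56 to 4.31] after poly(I:C) and 1.12 after LPS. Arih1, Ube2e1 and Ube2e2, further ligase and conjugating enzymes, were at 1.06, 0.959 and 1.03 after poly(I:C). Of the 5 partners, 0 were past 2-fold higher after LPS, against 2.5% of all genes, and 2 after poly(I:C), against 2.22%, with list medians of 0.11 and 0.08 on the log2 scale.

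Of the interferon signalling genes upstream of the members, 1 of 7 with enough UMIs was at least 2-fold higher after LPS (2.5% of all genes) and 2 of 7 after poly(I:C) (2.22%). Irf7, a transcription factor of the interferon response, was at 14.4 [9.11 to 24.0] after LPS and 44.1 [28.3 to 72.8] after poly(I:C). Stat2, which carries the receptor's signal to the nucleus, was at 1.29 after LPS and 3.04 [2.74 to 3.38] after poly(I:C). The receptor subunits Ifnar1 and Ifnar2 were at 0.730 and 0.883 after poly(I:C), and the kinases Jak1 and Tyk2 at 0.989 and 0.851. The list medians were -0.004 after LPS and -0.03 after poly(I:C) on the log2 scale. Irf9 and Ifnb1 had too few UMIs to compare.

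The same upstream genes differed between vessels and neurons. In endothelial nuclei Irf7 was at 490 CPM [399 to 595] after LPS, 852 [745 to 969] after poly(I:C) and 20.9 [10.03 to 38.5] after saline. In excitatory nuclei it was at 0.731, 3.99 and 0.166 CPM from 6, 16 and 1 UMIs. Stat2 was at 19.9 CPM after LPS, 48.8 after poly(I:C) and 17.8 after saline in excitatory nuclei, so it was detected there in all libraries. Ifnar1 was at 262 CPM after LPS, 192 after poly(I:C) and 559 after saline in endothelial nuclei, and at 35.6, 33.9 and 35.6 CPM in excitatory ones. Ube2l6 had 2, 12 and 0 UMIs in the LPS, poly(I:C) and saline excitatory nuclei.

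Of 5 genes whose proteins are known to carry Isg15, 1 was at least 2-fold higher after LPS (2.5% of all genes) and 3 after poly(I:C) (2.22%). Mx1, an antiviral GTPase, was at 8.25 [4.36 to 17.2] after LPS and 202 [113 to 406] after poly(I:C). Ddx58, the RNA sensor RIG-I, was at 1.75 after LPS and 16.1 [12.9 to 20.4] after poly(I:C), and Eif2ak2, the RNA-dependent kinase PKR, at 1.57 and 8.26 [7.32 to 9.35]. The list medians were 0.65 after LPS and 3.05 after poly(I:C) on the log2 scale.

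Relatives of the members were compared in the same way. None of 8 other activating enzymes, 4 other Herc ligases, 7 other Usp proteases and 8 other ubiquitin-like modifiers with enough UMIs was at least 2-fold higher or lower after LPS or after poly(I:C), where 2.5% and 2.22% of all genes were at least 2-fold higher and 1.73% and 2.87% lower. Nothing is read from a count of 0 among 27 genes beside such shares. Their list medians lay between -0.23 and 0.01 after LPS and between -0.46 and 0.09 after poly(I:C) on the log2 scale. Examples after poly(I:C) were Usp25 at 1.37, Ufm1 at 0.647 and Ubb at 0.586, the lowest of the 27.

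**Figure D4:**
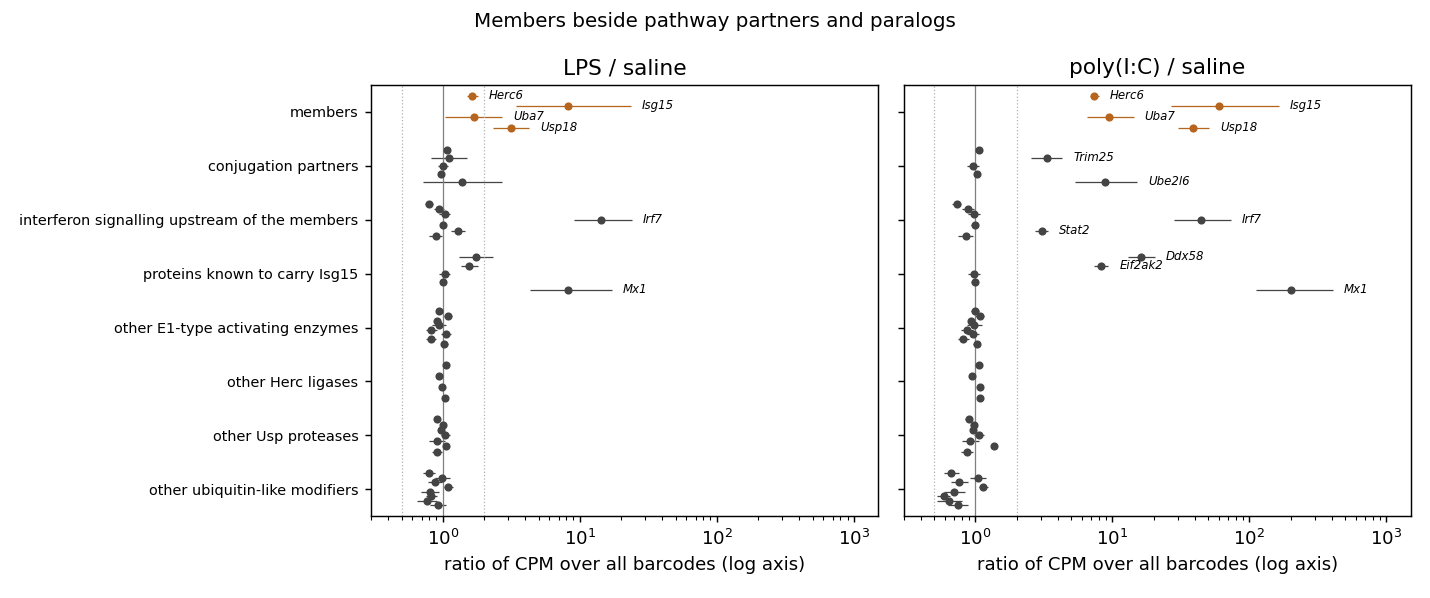
Ratios of CPM over all barcodes (horizontal log axis) of LPS to saline and poly(I:C) to saline for the 4 members and 7 lists of partner and related genes, with exact 95% intervals as lines, a solid line at 1 and dotted lines at 0.5 and 2. The members, Ube2l6, Trim25, Irf7, Stat2, Mx1, Ddx58 and Eif2ak2 lie past 2 after poly(I:C), and the related enzymes and modifiers lie between 0.5 and 2.

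The genes next to the members in the order of the RefSeq annotation were read from the same libraries. Agrn beside Isg15, Tuba8 beside Usp18, Pyurf and Ppm1k beside Herc6, and Traip beside Uba7 had ratios to saline between 0.875 and 0.962 after LPS and between 0.778 and 1.07 after poly(I:C). Slc6a13, the other neighbour of Usp18 and a transporter of vessel and meningeal cells, was at 0.567 [0.394 to 0.808] after LPS and 0.495 [0.318 to 0.750] after poly(I:C). Inka1, beside Uba7, had 4 UMIs after LPS, 6 after poly(I:C) and 19 after saline, with ratios to saline of 0.251 [0.0622 to 0.756] and 0.526 [0.172 to 1.37]. Perm1 had too few UMIs to compare.

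Over 31 sums of a class in a library with at least 50000 UMIs each, the genes most like Isg15 by Pearson correlation of log2(CPM + 10) were AC128859.3 (0.973), Irf7 (0.961), Gbp4 (0.959), Ccl5 (0.956) and Tmem106a (0.956). Those most like Usp18 were Mx2 (0.962), Eif2ak2 (0.943), Oas1k (0.941), Ifi44 (0.935) and Ddx58 (0.931). For Herc6 they were Oasl2 (0.925), Dtx3l (0.924), Usp18 (0.8997), Rnf213 (0.892) and Ifi44 (0.886), and for Uba7 Xaf1 (0.923), Ccl5 (0.905), Dtx3l (0.901), Sp110 (0.899) and AC128859.3 (0.899). Isg15 and Usp18 correlated at 0.776 with each other, which placed Usp18 at rank 236 for Isg15 of 14946 genes. The sums share libraries and depth, so these values only describe the pattern.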

How the data were processed

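Counts came from 3 single-nucleus libraries of rat brain, made with 10x Genomics 5' v2 chemistry. The deposited values are raw UMI counts per gene and barcode, made by the authors with Cell Ranger 7.0.0 on the build mRatBN7.2, per the submitters' processing notes. The annotation release and cell calling are not given in the sources used here. Nuclear RNA underrepresents cytoplasmic transcripts, and levels are of RNA, not of conjugated Isg15.

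The tools were scanpy 1.11.5, pandas 2.3.3, scipy 1.17.1, matplotlib 3.10.9 and numpy 2.4.6 under Python 3.11.15. All 28370 symbols and all barcodes were kept. Nuclei were gated without the member genes. A non-neuronal gate (11 in all) needed at least 3 distinct markers and at least 5 times the UMIs of an average barcode of that depth, and markers were used when nuclei holding them had at least 2 times the average of the other markers, except Lcn2, which was left out of the neutrophil list as a gene that responds to LPS. A neuron gate (5 in all, with 13 subtypes) needed at least 2 distinct markers, except the Slc17a6 gate, which needed Slc17a6 alone. All but the cholinergic gate also needed some markers of other neuron classes at 0. The striatal gate did not need the inhibitory markers at 0. Subtypes needed 1 to 3 markers, with 1 for the Drd1, Drd2 and other Slc17a6 subtypes. Flt1, Cldn5, Abcb1a and some other markers were not found under those symbols. Nuclei passing the gates of more than 1 class (465 after LPS, 211 after poly(I:C) and 405 after saline) were treated as doublets and left out of classes. Scrublet's automatic threshold marked 1026, 840 and 0 barcodes, so it did not work for saline, and as an alternative the 1005, 1800 and 5176 barcodes with the highest scores were left out, at the rate expected for the library size.

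UMIs were summed per class and divided by the class total. Levels have exact Poisson, shares Clopper-Pearson and ratios exact conditional 95% intervals. With 1 library a group no test or p-value was computed. A count of 0 was set to 3 UMIs for bounds, and genes needed at least 20 UMIs over both libraries to be counted past 2-fold. Thinning drew 1000 UMIs per nucleus and left out shallower nuclei. Thinned ratios of classes used gates set anew on the thinned counts, while thinned shares kept the original gates. The statistics were tested on simulated data. The genes named were the 4 members, the genes of 7 lists, some of which are not reported here, the RefSeq neighbours and, per member, the 5 most correlated genes. Members, lists and gates were chosen with earlier results of these data known. Alternatives changed the barcode filter, scaling, depth, doublets, gate strictness, neuronal RNA, minimum UMIs and fold, and, chosen after seeing the data, shared barcodes and vascular RNA in neurons.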

Additional observations from a re-analysis of the deposited data

How the results depend on the processing

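Of 657 alternative values for 105 results, 600 were the same, 56 moved and 1 reversed. A ratio was the same when it stayed within the counting interval of the reported ratio. Only the 78 of 93 ratios whose reported interval left out 1 could reverse. A count of list genes was the same when it was equal or within 1.5-fold. The reversed one was Herc6 in upper-layer neurons, whose LPS to saline ratio was 0.8 with nuclei thinned before gating (2 and 5 UMIs). With all barcodes thinned, the poly(I:C) to saline ratio was 19.41 for Isg15 and 5.735 for Herc6, and LPS to poly(I:C) was 0.2369 and 0.2764. With at least 500 genes and at most 5% mitochondrial UMIs, Herc6 was at 6.01 for poly(I:C) to saline and 0.2687 for LPS to poly(I:C), and without the highest Scrublet scores at 6.842 for poly(I:C) to saline. With a stricter gate, Herc6 in excitatory neurons was at 0.4061 for LPS to poly(I:C). Saline excitatory neurons were then 2.469-fold above inhibitory ones (71 and 0 UMIs, the 0 taken as 3). At 1.5-fold, 4 pathway genes were higher after LPS (Irf7, Mx1, Ddx58 and Eif2ak2, against 2 at 2-fold), as were 5.66% of all genes. At the same fold 2 relatives were lower after poly(I:C) (Ubb and Ufm1), as were 8.57% of all genes. With no minimum of UMIs and no floor for a count of 0, 1 pathway gene counted as lower after LPS (Irf9, 0 and 1 UMIs), and 1 relative (Ubd) as lower after poly(I:C) (0 UMIs) than after saline (7) and as higher after LPS (6) than after poly(I:C). With 3 UMIs for a count of 0 neither was past 2-fold. Ifnb1, at 2.39 from 4 LPS and 2 saline UMIs, was higher under that setting too. The cause was not tested, except that thinning and stricter gates leave fewer UMIs. Leaving out shared barcodes moved 0 of 93 ratios, and leaving out neurons with vascular markers 0 of 51. Scaling by the median ratio shifted all genes by -0.03, -0.08 and 0.05 (log2) in the 3 comparisons. No paired analysis was possible because each group had 1 library, and for the same reason no library could be left out. Isg15 and Uba7 outside vessels are limited by counts of 0 to 13 UMIs per class.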

Other observations

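Small gates held further values of the members. Mural nuclei, the pericytes and smooth muscle of vessel walls (7 after LPS, 12 after poly(I:C) and 15 after saline), held 1, 38 and 0 UMIs of Herc6 and 0, 9 and 0 of Isg15, which was at 1007 CPM [461 to 1912] after poly(I:C). Nuclei with neutrophil markers (1, 6 and 0) held 1, 10 and 0 UMIs of Herc6, 0, 5 and 0 of Usp18 and 0, 4 and 0 of Isg15. Cholinergic neurons (15, 20 and 32 nuclei) held 2, 11 and 0 UMIs of Herc6 and 0, 7 and 0 of Usp18. With so few nuclei these values describe the gates only.

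Within poly(I:C) endothelial nuclei thinned to 1000 UMIs, Herc6 was found in 19 of 20 nuclei with Isg15 and in 44 of 66 without.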
